A study of Mus musculus with 48 samples.

Results

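The genes described here encode the chains of the collagens. They are the rows of the authors' table of iris-corrected expression values whose symbol is Col, a number, the letter a and another number. They are 32 of the 20702 rows of that table, and the mouse annotation used here names 44 genes in this way. The other 12 genes stayed at or below 2.35 TPM (counts scaled by transcript length and by library total) in all samples, the highest value being that of Col13a1 in iris 1. The table holds only genes whose mean over its 13 columns is above 1, and 5 of those columns are explants while no iris is among them. For 16 of the 32 members the mean over the 8 columns that are no explants was at most 1 TPM, so these stood in the table through the explants, and their being there is not a finding.

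A collagen is a helix of chains, which may be copies of the same chain or products of several genes, and a chain without its partners is usually not secreted. Fibrillar collagens (types I, II, III, V, XI, XXIV and XXVII) form the rods of connective tissue, the type IV chains form the sheet of basement membranes, and the others are beaded filaments, chains that decorate fibrils, short-chain networks, basement membrane zone proteins whose C-terminal piece can be released (types XV and XVIII), or membrane-spanning chains. In the liver most fibrillar collagen comes from stellate cells and portal fibroblasts, and the hepatocyte is known as a source of type XVIII. In the eye, collagens fill the stroma of the iris and cornea and the basement membranes of epithelia and lens. The 32 members comprise 10 fibrillar chains, 6 type IV chains and 16 chains of other types.

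In the study, liver spheroids were placed in the anterior chamber of the mouse eye, where they attach to the iris. Bulk RNA from 16 samples was measured, each as 3 technical libraries whose counts the authors summed. All mice were adult albino animals of wild type genotype, and donors of both sexes were used. The labels give the strain as C57BL/6N, while the methods name an albino B6/J strain. The 5 explants (numbered 1, 2, 4, 5 and 6) are engrafted spheroids cut out 2 months post-tx together with the iris around them, so each explant is a mixture of graft and host tissue. The 3 naïve irises come from eyes without a graft, and the 3 livers are pieces of in situ liver of donor mice. The 3 hepatocyte preparations are cells freed by collagenase perfusion and enriched on a Percoll gradient, and the 2 in vitro spheroid samples were grown from such cells and never transplanted. Whether samples of the same group come from different animals is not given for every group, so p-values below measure the spread between these samples.

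Summed counts per sample ran from 2718518 to 6789648, with the explants the deepest (5449589 to 6789648) and the hepatocyte preparations the shallowest. Hepatocyte markers summed to between 4333 and 5655 TPM in the explants, between 1334 and 1588 in the irises and between 9153 and 9789 in the livers, so hepatocyte transcripts were also listed in irises. Liver 1 stood apart from livers 2 and 3. Its fibroblast markers summed to 1240 TPM against 423 and 484, and its stellate cell markers to 259 against 125 and 131. Explant 4 held 576 TPM of the corneal keratin Krt12, and its cornea markers summed to 1553 TPM against 42.8 to 368 in the other explants. Their effect on the calls is given beside the results. In bulk tissue, fewer cells of a type and less RNA per cell cannot be told apart.

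Explants and irises were rich in collagen transcripts and the liver samples were not. The members summed to 1114 ± 67.1 TPM in the explants (SD, n = 5) and to 1018 ± 34.4 in the irises (n = 3). The livers reached 415 ± 85.6 (n = 3), the hepatocyte preparations 301 ± 9.71 (n = 3) and the in vitro spheroids 219 ± 12.6 (n = 2). Most of what the liver samples held was a single chain, Col18a1 of type XVIII, the source of endostatin. It was the highest member in every group, with 19% of all collagen TPM in explants and 14.1% in irises, but 67% in livers, 88.3% in hepatocyte preparations and 73.9% in spheroids.

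Below Col18a1 the groups had different leading chains by group mean, which also led in every sample of the group except iris 1, where Col23a1 (117 TPM) was above Col4a5 (97.5). In explants it was Col1a1, the major chain of type I collagen, at 143 ± 19.2 TPM. In irises it was the type IV chain Col4a5 at 113 TPM, in livers the fibril-associated Col14a1 at 23.1 TPM, in hepatocyte preparations the minor fibrillar chain Col5a3 at 8.17 TPM and in spheroids the type IV chain Col4a1 at 24.9 TPM. The fibrillar chains alone summed to between 265 and 354 TPM in explants and to between 184 and 225 in irises, ranges that do not overlap. They summed to 93.4 TPM in liver 1, to 35.5 and 28.9 in livers 2 and 3, to between 13.6 and 20.5 in hepatocyte preparations and to 8.17 and 11.9 in spheroids.

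**Figure D1:**
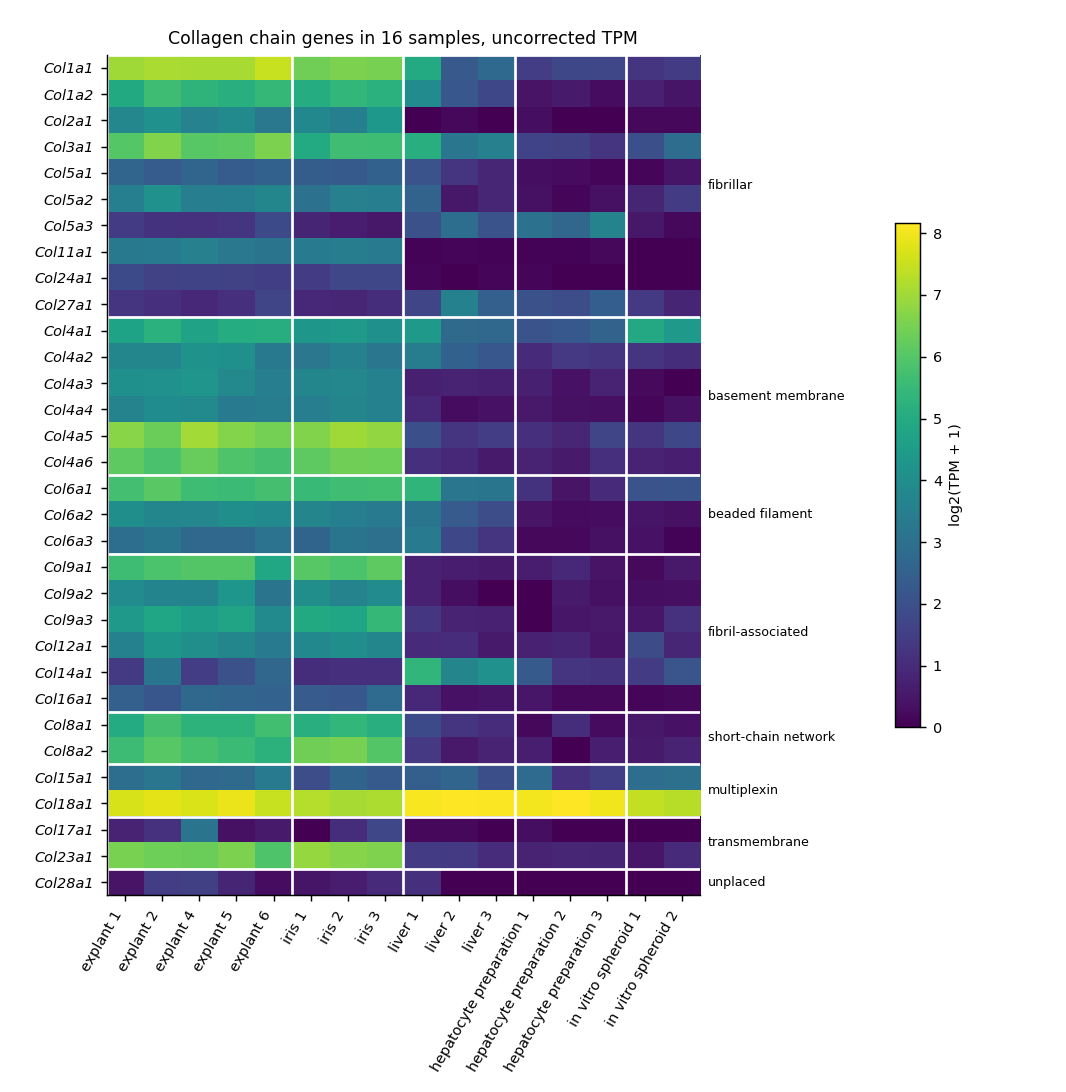
Level of the 32 collagen chain genes in the 16 samples, grouped by class, as the colour of log2(TPM + 1) before iris correction. Explants and irises share a pattern over most members, and Col18a1 is high in every column. Brighter colours are higher values. Liver 1 is brighter than livers 2 and 3 in the rows of Col1a1, Col1a2, Col3a1, Col5a1, Col5a2 and type VI.

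The comparison of explants with naïve irises asks what the graft and its surroundings add to the tissue that carries it. Col1a1 and Col3a1, the main chains of types I and III, Col4a1 of the basement membrane, Col6a2 of the type VI beaded filament and Col15a1, a multiplexin of basement membrane zones, were each higher in every explant than in every iris and every liver. They are 5 of the 32 members (15.6%), while 2.38% of all rows of the table had this order. No member was below both tissues in every explant, against 0.874% of rows.

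Col1a1 measured 128, 139, 136, 136 and 177 TPM in explants 1, 2, 4, 5 and 6. Naïve irises held 83.6, 94.0 and 89.8 TPM and livers 30.6, 3.86 and 5.93. The lowest explant was thus above the highest iris, and explant 6 stood above the other explants. On the counts, Col1a1 was higher in explants by 0.79 ± 0.14 on the log2 scale (SE; edgeR quasi-likelihood test, Benjamini-Hochberg adjusted p = 0.0081). Over the 8 fits that each left out 1 sample, the difference ran from 0.63 to 0.85 and its adjusted p from 0.00035 to 0.0598, the latter without iris 1.

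Col3a1, which copolymerises with type I in compliant tissues, measured 63.7, 96.4, 64.6, 67.7 and 94.3 TPM in the explants. Irises held 31.1, 50.2 and 48.3 TPM and livers 34.5, 8.25 and 10.7. Explants 2 and 6 were the high pair. The log2 difference to the irises was 0.95 ± 0.24 (edgeR adjusted p = 0.0296), and with 1 sample left out the adjusted p rose to as much as 0.126, passing 0.05 without explant 2 or any 1 of the irises.

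Col4a1 measured 25.8, 36.3, 25.3, 32.5 and 33 TPM in the explants, 19.2, 20.1 and 16.1 in the irises and 20.5, 6.09 and 5.61 in the livers. Its log2 difference between explants and irises was 0.83 ± 0.17 (edgeR adjusted p = 0.0150, up to 0.0817 with 1 sample left out, over 0.05 without iris 1 or iris 3). Col6a2 differed by less, 0.49 ± 0.12 (adjusted p = 0.0325, over 0.05 in 6 of the 8 such fits, up to 0.136), with explants between 12.5 and 15.8 TPM and irises between 9.54 and 12.3. Its ranges in the 2 tissues nearly touch. Col15a1 ran from 5.69 to 9.11 TPM in explants, from 2.84 to 5.26 in irises and from 2.91 to 5.32 in livers, and its adjusted p of 0.05001 was just above the threshold of 0.05 (log2 difference 0.95).

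Col18a1 lay between its neighbours. It measured 205, 226, 207, 242 and 177 TPM in the explants, 152, 135 and 142 in the irises and 269, 287 and 278 in the livers, without overlap between the 3 groups. Its log2 difference between explants and irises was 0.66 ± 0.09 (edgeR adjusted p = 0.0020).

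**Figure D2:**
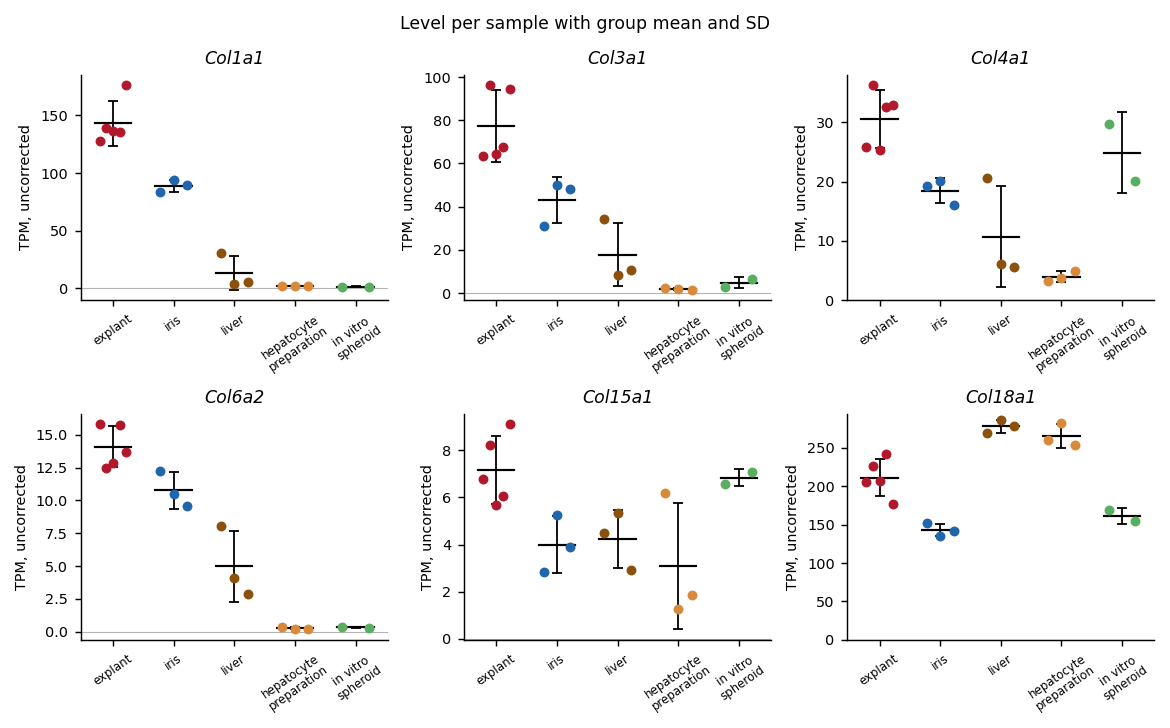
TPM before iris correction of Col1a1, Col3a1, Col4a1, Col6a2, Col15a1 and Col18a1 in each sample (points), with the mean and SD of each group, on linear axes. The explant points lie above all iris and liver points in each panel but that of Col18a1, where they lie between irises and livers.

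The promoter side of Col3a1 is shown because this gene is among the 5 above both tissues. The letters TATAAA occur in it, with 111 bases between them and the start. The 250 bases before its start in RefSeq, on the plus strand of build GRCm38.p6 at chr1:45311288-45311537, were as follows, with capitals for the letters TATAAA.
Col3a1: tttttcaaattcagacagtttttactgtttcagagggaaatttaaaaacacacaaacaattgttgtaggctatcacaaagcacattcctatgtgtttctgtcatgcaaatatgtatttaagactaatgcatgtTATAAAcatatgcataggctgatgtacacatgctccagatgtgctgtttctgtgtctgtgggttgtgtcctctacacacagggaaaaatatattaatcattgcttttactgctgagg
TATAAA, searched on either strand and at any distance from the start, occurs in 12.4% of the 32851 RefSeq windows of this length. GC content was 35.2%. A match describes the letters only.

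Counted with a threshold of adjusted p under 0.05 and a log2 difference over 1, a single member of 31 tested was called higher in explants (6.16% of all 16764 genes were) and none lower (0.316% of all genes). At an unadjusted p under 0.05, 10 members were higher and 4 lower, while 4626 of all 16764 genes passed in either direction. DESeq2 and limma-voom also called no member lower. Without the limit on size, 6 of 31 were higher (9.04% of all genes), namely Col1a1, Col3a1, Col4a1, Col5a3, Col6a2 and Col18a1. None was lower without it (2.74% of all genes). Fitted together with the livers, preparations and spheroids, with a common estimate of the spread, only Col18a1 of these 6 kept an adjusted p under 0.05. The median log2 difference was 0.22 over the 31 members and 0.0084 over all genes, and 23 members had positive and 8 negative differences. Col28a1 was not tested, since its counts were under the filter.

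The member called was Col5a3, a fibrillar chain that regulates fibril growth, and it rests on few reads. Explants held 22, 17, 17, 22 and 37 counts and irises 9, 6 and 5. The log2 difference was 1.55 ± 0.40 (2.92-fold, edgeR adjusted p = 0.0348), and the call was lost in 4 of the 8 fits that left out 1 sample, namely those without explant 2 and without each iris. Without explant 4, the one with the highest cornea markers, 4 members were called higher, namely Col5a3, Col3a1, Col14a1 and Col15a1. Without explant 1 there were 3, the same but for Col15a1. Calls higher over all genes rose as well, from 1032 to 1199 without explant 4 and to 1143 without explant 1. Livers had more Col5a3 (3.07, 6.72 and 3.29 TPM) than explants (1.22 to 2.60) or irises (0.45 to 0.79).

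The remaining fibrillar chains differed little from iris. Col2a1, the cartilage chain that is also made in the eye, ran from 8.60 to 16.6 TPM in explants and from 10.6 to 19.3 in irises. Col11a1, its usual partner, ran from 7.85 to 10.8 and from 9.15 to 9.68 TPM. Col1a2, the second chain of type I, was at 30.3, 48.5, 38.7, 34.2 and 42.4 TPM against 32.3, 41.7 and 36.1, overlapping ranges although its partner Col1a1 was apart. The ratio of Col1a1 to Col1a2 was therefore 2.86 to 4.21 in explants and 2.25 to 2.59 in irises. An exact permutation test, two-sided, gave p = 0.0179, the smallest that 5 against 3 samples allow, and 0.0714 after adjustment over the 8 chain ratios examined. The ratio of Col8a1 to Col8a2 gave the same values of p, at 0.67 to 1.35 in explants and 0.41 to 0.55 in irises.

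The minor fibrillar chains Col5a1 and Col5a2, which take part in starting fibrils of type I, were at 4.19 to 5.34 and 10.4 to 16.4 TPM in explants and at 4.01 to 4.79 and 7.51 to 10.8 in irises. Both overlapped (log2 differences 0.22 and 0.44, edgeR adjusted p = 0.366 and 0.204). Col24a1 was low in either tissue, at 1.88 to 2.57 and 1.73 to 2.36 TPM, and Col27a1 was at 0.86 to 2.24 and 0.84 to 1.12 TPM, with explant 6 the highest.

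Col4a2, the partner of Col4a1, was at 12.3, 12.4, 16.9, 16 and 8.96 TPM in explants and at 8.43, 11 and 8.25 in irises. Only explant 6 fell within the iris range, and the log2 difference of 0.62 ± 0.19 had an adjusted p of 0.0615 (edgeR). The remaining type IV chains did not pass either. Col4a3 and Col4a4 were at 10.2 to 18.2 and 9.57 to 14.8 TPM in explants and at 11.1 to 12.7 and 10.2 to 12.1 in irises. Col4a5 and Col4a6, both more abundant, were at 80.1 to 129 and 52.8 to 76.0 TPM in explants and at 97.5 to 129 and 69.6 to 82.7 in irises. Explant 6 was the lowest explant for Col4a2, Col4a3 and Col4a6.

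Among the other classes, the type VI partners Col6a1 and Col6a3 overlapped, at 46.5 to 67.3 and 5.59 to 8 TPM in explants and at 45.8 to 51.2 and 5.22 to 8.10 in irises. The fibril-associated chains Col9a2, Col9a3, Col12a1 and Col16a1 overlapped as well. Col9a3, a chain of the type IX helix with Col9a1 and Col9a2, was at 13.9 to 27.4 TPM in explants and at 27.2 to 42 in irises, with only explant 2 reaching the iris range. Col8a1, a network chain of endothelial and corneal basement membranes, was at 31.9 to 53.0 TPM in explants and at 34.1 to 41.8 in irises. Col28a1 stayed at or below 1.89 TPM in all samples, and Col17a1 was above 2.31 TPM in explant 4 alone.

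Col14a1, a chain on the surface of fibrils, separated the explants from each other more than most members. It measured 1.63, 8.10, 1.81, 3.05 and 5.52 TPM in the explants against 1.11 to 1.19 in irises and 40.5, 12 and 16.6 in livers. All explants were above all irises, with explants 2 and 6 highest, but its adjusted p was 0.0694 (log2 difference 1.94 ± 0.61).

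Col8a2, Col9a1 and Col23a1, a short-chain network chain, a fibril-associated chain and a membrane-spanning chain, leaned the other way. Col23a1 was at 91.0, 81.0, 80.1, 92.2 and 59.1 TPM in explants and at 117, 102 and 95.1 in irises, the ranges apart, yet the log2 difference was small (-0.28, edgeR adjusted p = 0.135). Col8a2 was at 37.3 to 65.2 TPM in explants and at 62.3 to 90.1 in irises (log2 difference -0.55, adjusted p = 0.0681). Col9a1 spanned 28.3 to 62.8 TPM in explants and 56.4 to 70.4 in irises, and explant 6 was the lowest of all.

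Marker sums differed between explants and irises too. Fibroblast markers summed to between 1558 and 1886 TPM in explants and to between 2070 and 2331 in irises, lower in every explant. Most of that sum was Dcn, and the fibroblast marker Dpt went the other way, with 3.73 to 28.8 TPM in explants and at most 1.04 in irises. Myofibroblast and smooth muscle markers summed to between 2521 and 3066 against 3549 to 3724. Acta2, Tagln and Myh11 made up most of that sum and were each lower in every explant. Postn (76.3 to 86.6 TPM against 70.1 to 90.1) and Cnn1 (72.8 to 111 against 98.6 to 113) overlapped. Des was at 61.2 to 87.5 against 58.3 to 68.7, above every iris in all explants but explant 2. Macrophage markers were higher in every explant (1034 to 2777 TPM against 729 to 783), and endothelial marker sums overlapped (68.0 to 94.6 against 70.1 to 74.6). Egfl7 was the largest part of the endothelial sum. The endothelial marker Pecam1 was higher in every explant (8.85 to 14.3 TPM against 7.42 to 7.73), while each of the others overlapped. Lens markers were lower in every explant (261 to 429 TPM against 527 to 932). Pigment cell markers, which are of iris origin, were lower in every explant too (6535 to 8309 TPM against 9126 to 9529). An explant is only in part iris, by the iris shares given below. The part of this mixing, and of these cell types, in the marker and collagen differences was not tested.

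**Figure D3:**
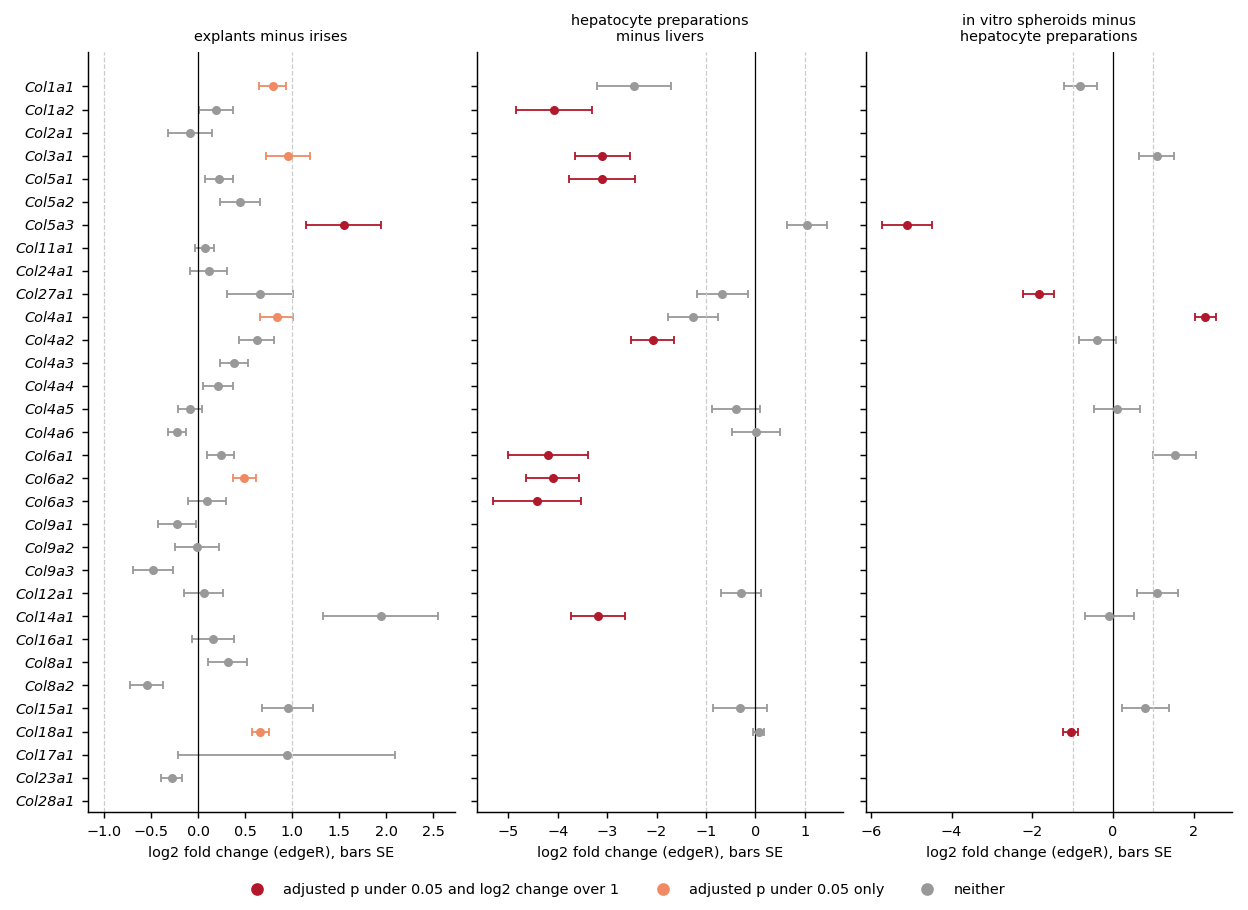
Log2 fold change with its SE for each collagen chain gene tested, for explants relative to irises, for preparations relative to livers and for spheroids relative to preparations (edgeR). Dark red points passed adjusted p and the size limit of 1 (dashed lines), orange points passed adjusted p alone and grey points neither. Values of Col5a1, Col6a2 and Col6a3 in preparations and Col5a3 in spheroids rest on groups near the counting floor. Orange and red points in the first panel all lie to the right, those in the middle panel all to the left.

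Explants minus iris. To estimate the graft's own transcripts, the authors subtracted an iris share from each explant and rescaled the rest. The iris shares that return the deposited values were 82, 68, 81, 72 and 59% for explants 1, 2, 4, 5 and 6 (mean 72.4 ± 9.56, SD). The same formula was applied here to all 5 explants. The corrected TPM were compared with livers and with in vitro spheroids on the log2(TPM + 1) scale with limma, which understates changes of low genes. Both comparisons, and that of explants with irises, share the explants, so their values stand side by side and are not independent.

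After correction, 14 of the 32 members were higher in explants than in livers (12.1% of the 20656 genes tested were) and none lower (3.18% of all). Against spheroids, 11 were higher (5.16% of all) and none lower (1.09%), and neither comparison had a member lower at an unadjusted p under 0.05. At that p, 6448 of 20656 genes against livers and 3952 of 20601 against spheroids passed in either direction. Over all genes the median difference was 0.57 against livers and 0.47 against spheroids, on the log2(TPM + 1) scale. Hepatocyte markers summed to between 11648 and 17284 TPM in corrected explants, against 9153 to 9789 in livers. The differences below are given without allowance for this shift. The counts of members are no evidence about the members as a group, since 16 of them stand in the table only through the explants, where they are high. Of these, 6 were called against livers and 4 against spheroids. Of the other 16, whose mean was over 1 TPM without the explants, 8 were called against livers (Col1a1, Col3a1, Col5a2, Col4a1, Col4a5, Col6a1, Col6a2 and Col15a1) and 7 against spheroids (the same without Col4a1 and Col15a1, and with Col4a2). Testing all genes of the TPM table with no filter gave 12 and 8 calls, while 2086 of 30079 and 836 of 29560 genes were called higher.

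Among fibrillar chains, Col1a1 stood first in both comparisons. Its corrected level was 304, 245, 337, 257 and 302 TPM in the explants, and the livers held 30.6, 3.86 and 5.93, with no overlap. The difference was 4.82 ± 0.54 on the log2(TPM + 1) scale against livers (limma adjusted p = 0.0012) and 6.82 ± 0.28 against spheroids (adjusted p = 1e-04). Col3a1 reached 157, 209.5, 156, 131 and 168 TPM after correction, 3.38 ± 0.43 above livers (adjusted p = 0.0019) and 4.88 above spheroids. Col5a2 was also called in both. Col11a1, called in both, and Col24a1, called against livers, are in the table through the explants.

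In the basement membrane class, Col4a1 and Col4a5 were called against livers and Col4a2 and Col4a5 against spheroids, next to Col4a3, Col4a4 and, against livers, Col4a6, which are in the table through the explants. Col4a1 was at 59.1, 74.2, 54.2, 68.7 and 53.8 TPM after correction, 2.64 ± 0.43 above livers (limma adjusted p = 0.0051). Against spheroids, which are themselves rich in Col4a1, it was 1.30 higher with an adjusted p of 0.0658. Col4a5, which is highest in iris, varied widely after correction, with 64.6, 10.2, 199, 65.1 and 48.5 TPM. Its call against livers was lost with another iris share, given below.

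Of the other chains, Col6a1, Col6a2 and Col8a1 (the last in the table through the explants) were called in both comparisons and Col15a1 against livers (1.66, adjusted p = 0.0240). Col18a1 was at 488, 403, 477, 495 and 226 TPM after correction, above every liver except in explant 6, and was not called. No fibril-associated chain was called, and Col8a2 was listed at 0 in 4 of 5 corrected explants.

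These calls depend on the subtraction. With an iris share taken from pigment cell markers, chosen after the data had been seen (mean 77.0 ± 8.48%), 8 members were called against livers and 4 against spheroids. Over all genes, calls higher went with this share from 2496 to 1213 against livers and from 1064 to 416 against spheroids. Col4a5, Col4a6, Col8a1, Col6a1, Col15a1 and Col24a1 were then no longer called against livers, while Col1a1, Col3a1 and Col4a1 were. Leaving out liver 2 left 6 calls against livers, liver 3 left 7 and liver 1 left 12, while leaving out either spheroid sample left 3 calls against spheroids and leaving out explant 5 left 7. Calls higher over all genes against livers dropped in the same fits, from 2496 to 955 without liver 2, 990 without liver 3 and 1557 without liver 1. Against spheroids they dropped from 1064 to 646 without explant 5. They dropped further without either spheroid sample, in fits that leave only 1 sample in that group. Without explant 4 there were 13 calls of members against livers, Col24a1 being lost, and 11 against spheroids. Over all genes, 2513 and 1042 were called higher in these fits. Col1a1, Col3a1, Col11a1, Col4a1, Col4a3 and Col8a1 were called against livers in all 8 such fits. After subtraction, pigment cell markers still summed to between 251 and 3970 TPM in explants against 549 to 561 in livers. Myofibroblast and smooth muscle markers then summed to between 339 and 1348 against 148 to 164. The part of remaining iris in the differences was not tested.

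**Figure D4:**
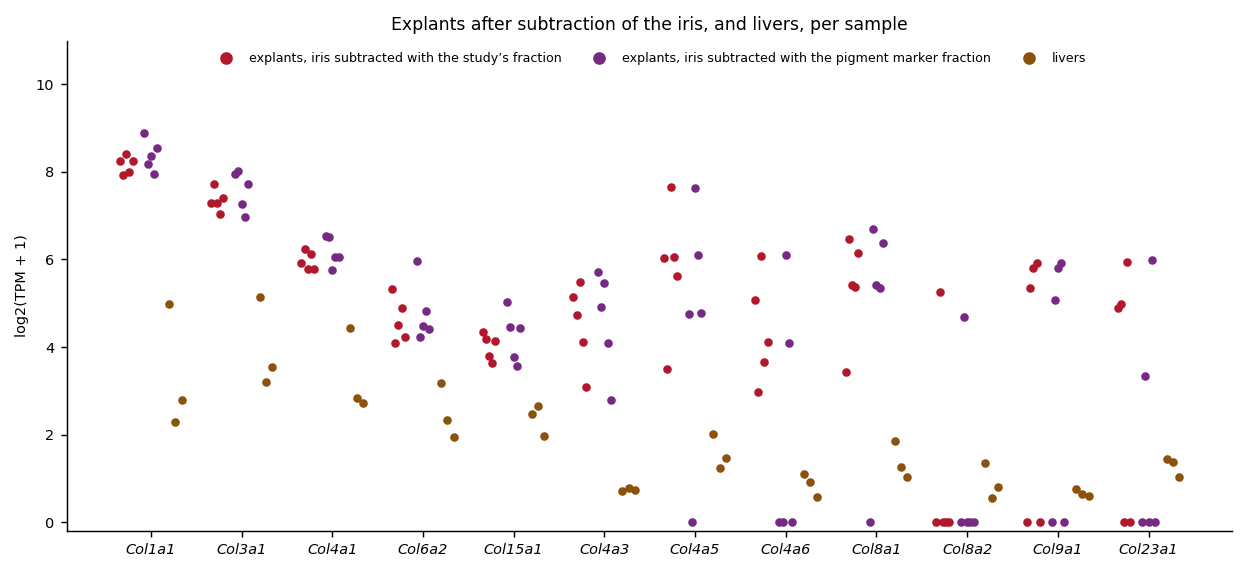
Iris-subtracted explant values of 12 collagen chain genes, with the iris share behind the deposited values and with the share from pigment cell markers, and the livers, as log2(TPM + 1) per sample. Col1a1, Col3a1 and Col4a1 stay above the livers with either share, while Col4a5 and Col4a6 drop in some explants.

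Hepatocyte preparations against livers. This comparison asks how cells freed from the liver and enriched for hepatocytes differ from the whole organ. Of 17 members tested, 8 were lower in the preparations (2.31% of all 12236 genes were) and none higher (0.409% of all genes). At an unadjusted p under 0.05, 1 member was higher and 10 lower, while 3100 of all 12236 genes passed in either direction. With no filter on low counts 1 member was called higher, as were 191 of 25664 genes. All 3 type VI chains fell, as did Col1a2, Col3a1, Col5a1, Col4a2 and Col14a1.

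Type VI collagen is a beaded filament around cells. Col6a1 was at 40.1, 8.2 and 8.13 TPM in livers and at 1.28, 0.36 and 1.03 in preparations, which corresponds to 8, 2 and 5 counts. Its log2 difference was -4.20 ± 0.81 (edgeR adjusted p = 0.0393), and -3.06 without liver 1. Col6a2 (adjusted p = 0.0194) and Col6a3 (adjusted p = 0.0411) passed as well, with 8.03, 4.06 and 2.85 TPM and 9.43, 2.41 and 1.38 TPM in livers, but the preparations held only 2 to 4 counts of each, so no fold is given. Liver 1 was the highest in each.

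Of the fibrillar chains, Col1a2 fell by 4.08 ± 0.78 on the log2 scale (edgeR adjusted p = 0.0393), from 14.5, 3.68 and 2.44 TPM to 0.34, 0.51 and 0.22, and by 2.97 without liver 1. Col3a1 fell by 3.10 ± 0.55 (adjusted p = 0.0354), from 34.5, 8.25 and 10.7 TPM to 2.14, 2.02 and 1.37, and by 2.25 without liver 1. Col5a1 passed the test too (adjusted p = 0.0464) but was near the counting floor in the preparations, so no fold is given. The groups did not overlap for any of these, nor for Col1a1, which was at 1.81, 2.42 and 2.33 TPM in the preparations and did not pass (log2 difference -2.45 ± 0.75, adjusted p = 0.0975).

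Col14a1 fell by 3.19 ± 0.55 on the log2 scale (edgeR adjusted p = 0.0354), or 2.56 without liver 1, and Col4a2 by 2.08 ± 0.43 (adjusted p = 0.0438). Col4a2 and Col5a1 were the members lost without liver 1. Col18a1 was level, at 261, 283 and 254 TPM in preparations against 269, 287 and 278 in livers (log2 difference 0.07 ± 0.11). Col5a3 went the other way, with 7.40, 5.48 and 11.6 TPM in preparations against 3.07, 6.72 and 3.29, overlapping and not called (adjusted p = 0.160).

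Stromal markers fell beside these chains. Fibroblast markers summed to between 116 and 168 TPM in preparations against 423 to 1240 in livers, and stellate cell markers to between 10.6 and 37.8 against 125 to 259. The part of these cells in the result was not tested. The count of calls depended on single samples. Without liver 1 it was 6, without liver 3 or preparation 1 it was 3, and without liver 2, preparation 2 or preparation 3 it was 0, as it was with limma-voom. Calls over all genes dropped in the same fits, from 283 lower to 115 without liver 1, 83 without liver 3, 15 without liver 2, 7 without preparation 2, 4 without preparation 3 and 11 with limma-voom, but not without preparation 1 (338).

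In vitro spheroids against hepatocyte preparations. This comparison follows the cells from isolation into spheroid culture, with 2 samples against 3. Of 12 members tested, 1 rose (8.13% of all 12247 genes) and 3 fell (9.11%), with a median log2 difference of 0.0045 against 0.0073 over all genes. The member that rose was Col4a1. It was at 29.7 and 20.1 TPM in spheroids and at 3.29, 3.73 and 5.01 in preparations, in counts 266 and 170 against 32, 32 and 38. The log2 difference was 2.29 ± 0.26 (4.89-fold, edgeR adjusted p = 0.0012), and the call was kept in all 5 fits with 1 sample left out.

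Col4a2, the chain with which Col4a1 forms the common type IV helix, did not pass the test. It was at 1.38 and 1.09 TPM in spheroids and at 0.95, 1.56 and 1.36 in preparations (log2 difference -0.38 ± 0.46, adjusted p = 0.568), on 12 and 9 counts against 9, 13 and 10. The ratio of Col4a1 to Col4a2 was 21.5 and 18.3 in spheroids and 3.45, 2.39 and 3.69 in preparations, 6.36-fold apart. Explants had ratios of 1.5 to 3.68, irises of 1.84 to 2.28 and livers of 1.27 to 2.12, so the spheroids were outside the range of all other samples. An exact permutation test, two-sided, gave p = 0.1, the smallest that 2 against 3 samples allow.

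The members of this gene pair start next to each other on opposite strands, and the 22 bases that both first exons share are printed because the ratio turns on this locus. They lie at chr8:11312805-11312826 (GRCm38.p6, plus strand), with capitals for GGGCGG. Of RefSeq windows of this length, 7.19% hold it on either strand. Those windows lie directly before a start, unlike these bases, which lie after both starts.
Col4a1 and Col4a2: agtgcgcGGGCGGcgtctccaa
Reads were counted without strand and a read over several genes was given to each, so in these bases the chains cannot be told apart. The same holds for stretches of 7 members in all, the longest being 563 bases (5.65%) of Col4a3 that an antisense gene covers.

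**Figure D5:**
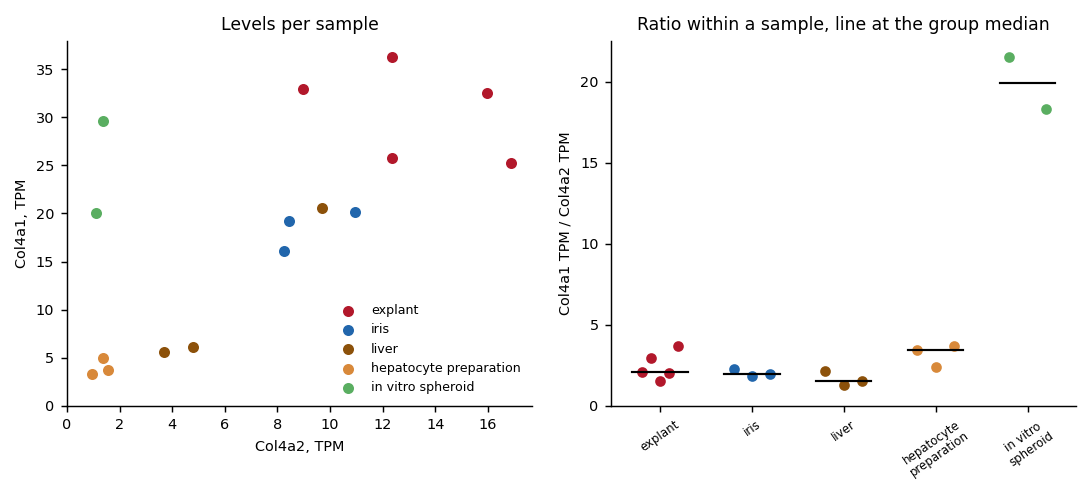
Col4a1 against Col4a2 TPM per sample, and the ratio of both per sample. The 2 in vitro spheroid samples lie at ratios of 21.5 and 18.3, all other samples at or below 3.69.

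The 3 members that fell in spheroids were Col5a3, Col27a1 and Col18a1. Col5a3 had 72, 47 and 88 counts in preparations and 4 and 1 in spheroids (edgeR adjusted p = 0.0015), too few there for a fold. Col27a1, a fibrillar chain of cartilage that was also read in livers (2.25, 10.9 and 4.71 TPM), fell from 3.12, 2.81 and 4.42 TPM to 1.63 and 0.80 (log2 difference -1.84 ± 0.39, adjusted p = 0.0129). Col18a1 fell to 169 and 154 TPM (log2 difference -1.05 ± 0.19, adjusted p = 0.0076). Scaling by library size alone gave -0.79 for Col18a1, under the size limit, and Col18a1 and Col27a1 were each called in 3 of the 5 fits with 1 sample left out. They were lost without preparation 2 or spheroid 1 and without preparation 3 or spheroid 2, respectively. Col15a1 and Col3a1 held more in spheroids (6.59 and 7.10, and 3.02 and 6.64 TPM) but did not pass.

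Irises against livers. The host tissue and the organ of origin differed over most members. Of 30 tested, 17 were higher in iris (29.8% of all 15459 genes were) and 4 lower (22.1%). The median log2 difference was 2.04 over members and 0.11 over all genes. Scaling by library size alone moved the latter to 0.80 and the calls over all genes from 4606 higher and 3422 lower to 6803 and 1973, and gave 19 and 4 calls among members.

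The type IV chains other than Col4a1 and Col4a2 were all higher in iris. Col4a5 was at 97.5, 129 and 113 TPM in irises and at 3.01, 1.36 and 1.77 in livers, a log2 difference of 4.90, and Col4a6 rose by 5.65. Col4a3 and Col4a4, partners of Col4a5 in specialised basement membranes, were higher by 3.29 and 3.65. Col4a1 and Col4a2 were not called, livers 2 and 3 lying below every iris and liver 1 within or just above their range.

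The type IV chains sit in the genome as pairs that face away from each other, and the DNA between the starts is shown for the iris-rich pairs. Between Col4a4 and Col4a3 lie 71 bases, printed whole (chr1:82586850-82586920, plus strand, GRCm38.p6). For Col4a5, whose start lies 1308 bases from that of Col4a6, the 216 bases before the start are shown (chrX:141475169-141475384, plus strand), with capitals for CCAAT.
Col4a4 to Col4a3: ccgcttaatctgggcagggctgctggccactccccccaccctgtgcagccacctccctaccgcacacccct
Col4a5: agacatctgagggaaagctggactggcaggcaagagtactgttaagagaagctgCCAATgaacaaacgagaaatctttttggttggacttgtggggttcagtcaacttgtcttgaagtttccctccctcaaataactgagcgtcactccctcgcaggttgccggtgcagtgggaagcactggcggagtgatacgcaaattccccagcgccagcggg
The letters CCAAT, sought on both strands, are not in the window between Col4a4 and Col4a3, and neither are TATAAA or GGGCGG. Windows of 71 bases hold the first of these in 13.3% of promoters, TATAAA in 4.41% and GGGCGG in 20.7%. Among windows of 216 bases, 30.8% hold CCAAT. GC content was 69.0% between Col4a4 and Col4a3 and 52.3% before Col4a5.

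Among the other chains, Col9a1 (log2 difference 5.86), Col8a2 (5.51), Col23a1 (5.29), Col9a3 (4.22), Col8a1 (3.58), Col12a1 (3.14) and Col16a1 (2.20) were higher in irises. So were Col1a1 (1.88, edgeR adjusted p = 0.0144) and Col1a2 (1.56, adjusted p = 0.0182), both near the limit. Col1a1 was lost without liver 3, and Col1a2 without iris 2, liver 2 or liver 3. Without liver 1, Col3a1, Col5a2 and Col6a1 were called higher as well. Col2a1, Col11a1, Col24a1 and Col9a2 passed too, but livers held at most a few counts of each, so no fold is given.

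The members lower in irises were Col14a1 (log2 difference -5.18), Col5a3 (-3.72), Col27a1 (-3.56) and Col18a1 (-1.85 ± 0.10). Col18a1 is thus the most abundant collagen chain of iris and still lower there than in liver. Its mean TPM was 143 in irises and 278 in livers, a smaller gap than the log2 difference from the TMM-scaled counts. Livers held traces of iris-rich chains. Col4a5 in the liver, preparation and spheroid samples was 0.73 to 2.66% of its iris mean, Col9a1 0.23 to 1.47% and Col23a1 0.38 to 1.62%. The 6 pigment cell markers, which liver cells should lack, were in the same samples at 1.12 to 1.62% (Slc45a2), 1.55 to 2.49% (Mitf), 3.23 to 5.11% (Tyrp1), 4.4 to 5.66% (Mlana), 5.26 to 6.94% (Pmel) and 6.65 to 8.93% (Dct) of their iris means. Only those of Slc45a2 and Mitf reach into the range of these collagen chains, but the picture depends on the chains named. On few counts in livers, Col4a3 was at 5.18 to 5.82%, Col4a4 at 1.80 to 8.29% and Col8a1 at 2.81 to 7.06%. These values reach into the range of the other pigment cell markers. Col4a6 (0.64 to 1.45%) and Col8a2 (0.60 to 1.98%) stayed low in livers. Whether these low values have a common source was not tested.

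Genes that serve collagens were read beside them, in lists of 19 genes for modification and folding, 13 for processing and crosslinking and 9 receptors. In explants against irises, 1 of 36 tested (2.78%, against 6.16% of all genes) was called higher, the collagen-binding integrin chain Itga2 (edgeR adjusted p = 0.0231), with 5 to 23 counts in explants and 1 to 2 in irises, too few for a fold. Loxl1, a crosslinking enzyme, was higher by 0.90 ± 0.14 (adjusted p = 0.0040), under the size limit. In hepatocyte preparations, Sparc, a collagen-binding matrix protein, fell by 1.94 ± 0.26 on the log2 scale (adjusted p = 0.0200) and the collagen receptor Ddr2 by 1.75 (adjusted p = 0.0461). They were 2 of 24 tested (8.33%, against 2.31% of all genes).

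In spheroids 2 of 24 of these genes were higher (8.33%), close to the share of all genes (8.13%). They were P4ha2, a chain of the enzyme that hydroxylates collagen prolines (log2 difference 2.12 ± 0.22, edgeR adjusted p = 0.0010), and Lox, which crosslinks secreted collagen (adjusted p = 0.0207). Lox was uneven, with 12 and 133 counts in the spheroid samples and 4, 0 and 1 in the preparations, so no fold is given. Colgalt2, a collagen galactosyltransferase, passed in the lower direction (adjusted p = 0.0080) from a level that fell to the counting floor. In corrected explants, 15 of 35 genes were higher than in livers (42.9%, against 12.1% of all genes). Against spheroids, 10 of 35 were higher (28.6%, against 5.16%), among them Loxl1, the collagen chaperone Serpinh1 and the procollagen enhancer Pcolce. These 2 shares are no evidence about the lists, since a gene can stand in the corrected table through the explants alone. The part of remaining iris in these differences was not tested. In irises against livers, 23 of 34 were higher (67.6%, against 29.8% of all genes) and 7 lower (20.6%, against 22.1%).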

How the data were processed

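The authors prepared full-length Smart-seq3 libraries from bulk RNA, mapped reads to mm10 with TopHat2, removed duplicates by molecular identifiers and counted reads over exons with featureCounts, without strand and giving a read to every gene it overlaps. They deposited counts per technical library, collapsed counts per sample (3 libraries summed), TPM, and a table in which the explant columns are signal left after an iris share was subtracted from TPM. Explant 4 in that deposited table does not follow the stated subtraction, so the correction was recomputed here from deposited TPM and the study's iris shares for all explants. The deposited list of counts for unnamed genes was not used.

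Counts were tested per comparison with edgeR 4.0.16 (quasi-likelihood, TMM, low-count filter) and corrected TPM with limma 3.58.1 on log2(TPM + 1) in R 4.3.3, with Benjamini-Hochberg adjustment over all genes. Calls needed an adjusted p under 0.05 and a log2 difference over 1. DESeq2 1.42.0, limma-voom, other scalings and filters, a replicate block, a single fit of all groups and leaving out each sample were alternatives. Scripts were tested on simulated data. No fold change is given where a group held a mean of at most 3 counts per sample. Ratios used scipy 1.17.1. The members and lists were chosen with earlier results of these data known. Every member could be named, grouped by class, with values per sample for the most abundant called members, and of the genes that serve collagens those called. Exact tests and SE cover the spread between samples only. RefSeq sequences were found for 25 of the 32 members.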

Additional observations from a re-analysis of the deposited data

Results flagged for a closer look

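Of 32 sets of 5 explant values examined, one for each member, 2 held a sample far from the others by Dixon's ratio (0.71 is the critical value for 5 samples), and chance flags about 1 in 20 such groups. Col1a1 in explant 6 was at 176.6 TPM while the nearest other explant was at 138.9 (ratio 0.77). Col17a1, a membrane-spanning chain of epithelial attachment to basement membrane, was at 7.79 TPM in explant 4 while the nearest was at 1.24 (ratio 0.87), and explant 4 was also the explant with the highest cornea markers (1553 TPM).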

How the results depend on the processing

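In explants against irises, 1 member was called higher, and DESeq2 gave 2, limma-voom 0, no size limit 6 and a single fit of all groups 0. Leaving out 1 sample gave 0 to 4. In preparations against livers, 8 were lower (limma-voom 0, leaving out 1 sample 0 to 6) and 0 higher (no filter 1). In spheroids against preparations, 1 was higher (library size alone 2, no filter 3, leaving out 1 sample 1 to 2) and 3 lower (2 to 3). In irises against livers, 17 were higher (15 to 20) and 4 lower (4 to 5). In corrected explants against livers, 14 were higher (uncorrected TPM 24, corrected values as deposited 9, pigment marker share 8, leaving out 1 sample 6 to 16) and 0 lower (uncorrected TPM 2). Against spheroids, 11 were higher (25, 5 and 4 in the same order, leaving out 1 sample 3 to 11). With uncorrected TPM, deposited values and the pigment marker share, calls higher over all genes were 7416, 1130 and 1213 against livers. Against spheroids they were 6433, 394 and 416. No member's call changed sign. The labels do not say whether replicate numbers pair the samples. Correlations of same-numbered samples were 0.105, 0.0633 and -0.0430 for preparations and livers, and 0.102 and 0.135 for spheroids and preparations. So few samples cannot decide whether the numbers pair them. With the replicate block, both comparisons of corrected explants had 0 calls, among members and over all genes alike, and Col5a3 was lost (1.22) and Col3a1 called (1.07) in explants against irises. Library size alone moved the median of all genes from 0.0073 to 0.27 in spheroids against preparations, and the calls over all genes from 996 higher and 1116 lower to 1531 and 808. Depth limits the chains with few counts. The cause of these changes was not tested.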
